A study of Homo sapiens with 9 samples.

Results

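The genes described here are the human ZNF genes with a number of at least 400 and below 900, part of a naming series of zinc finger protein genes. A gene was a member if its current symbol was ZNF followed by a number in that range, with or without a final letter, if RefSeq listed it as protein coding, and if at least 1 probe set carried it as the single symbol. These were 287 of the 18132 genes with such a probe set, read by 644 probe sets. Another 7 genes with matching symbols were left out because RefSeq lists them as transcribed pseudogenes, and 39 probe sets that carry such a gene beside other symbols were left out as well. The rule uses the name of a gene and none of its intensities.

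RNA was measured on Affymetrix arrays in the human cholangiocarcinoma (bile duct cancer) line HCCC-9810, with 9 arrays in all. There were 3 arrays of cells given siRNA against BAP1 (si-BAP1), 3 of cells given siRNA against MBD5 (si-MBD5) and 3 of control cells (si-Control). All 9 come from this single line with no other genetic change given, and its replicates are biological per the labels, so the tests measure how far samples of 1 line vary. The control is called both si-Control and a control shRNA in the labels, and it is not settled which was used. BAP1 is a nuclear deubiquitinase that removes ubiquitin from histone H2A, and MBD5 is a methyl-CpG-binding-domain protein that associates with BAP1's complex.

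Zinc finger proteins of the classical type bind DNA through tandem fingers, each of which contacts a few bases, and they form the largest family of human transcription factors. Many members of this naming series also carry a KRAB domain, which recruits TRIM28 (KAP1). TRIM28 in turn brings the histone methyltransferase SETDB1, HP1 proteins and histone deacetylases, and so silences chromatin at the bound site, often a transposable element. Many KRAB zinc finger genes arose by tandem duplication and lie in clusters, above all on chromosome 19. Other members of the series have no KRAB domain and work as SUMO ligases, RNA processing factors or partners of chromatin complexes.

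All values below are deposited intensities, a linear measure of brightness that is not comparable between probe sets. A gene's value is that of the brightest of its probe sets. Log2 differences were taken between group means of log2(intensity + 16) in limma, which understates the change of dim genes, with the standard error (SE) and the p-value adjusted over all 12431 genes tested. A member was called higher or lower where the adjusted p was below 0.05. Replicate numbers are used here only to name arrays.

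The target check was limited to MBD5, since BAP1 was not analysed here. The brighter MBD5 probe set read 6.21, 6.21 and 6.11 in si-MBD5 arrays, against 7.16, 7.06 and 6.90 in si-Control arrays. All 3 si-MBD5 arrays lay below the controls, but these readings were among the dimmest measured, and the log2 difference of -0.06 (SE 0.027) had a limma adjusted p of 0.308 over all probe sets. In si-BAP1 arrays the same probe set read 8.66, 7.61 and 6.99. Array medians ran over 36.9 to 38.2, and arrays of 1 group correlated at 0.998 to 0.999 across probe sets. The 3′ to 5′ ratio of the ACTB control probe sets, a sign of RNA integrity, was 11.1 ± 0.31 in si-BAP1 and 12.2 ± 0.52 in si-Control arrays (SD, n = 3 each). These did not overlap (exact permutation p = 0.1, two-sided, the smallest that 3 against 3 arrays can give). In si-MBD5 arrays the ratio was 12.3 ± 0.72 (exact permutation p = 0.8 against si-Control). The same ratio for GAPDH was 1.08 ± 0.011 in si-BAP1, 1.07 ± 0.0046 in si-MBD5 and 1.06 ± 0.026 in si-Control arrays, and these overlapped (exact permutation p = 0.3 and 0.7 against si-Control). The part of these ratios in the results below was not tested. Of 12 epithelial markers with a probe set, KRT7, KRT8, KRT18, MUC1, SOX9 and CLDN4 passed the filter, while KRT19, EPCAM, CFTR, SPP1, AQP1 and ONECUT1 did not. The summed level of all 12 was 4031 to 4175 in si-BAP1, 3743 to 4016 in si-MBD5 and 3946 to 4278 in si-Control arrays. This sum runs over different probe sets, and KRT18 and KRT7 dominate it. Single markers differed by limma: KRT8 by 0.31 log2 (adjusted p = 0.000227) and CLDN4 by -0.33 log2 (adjusted p = 0.00184) in si-BAP1, and KRT7 by -0.15 log2 in si-BAP1 (adjusted p = 0.0236) and -0.19 log2 in si-MBD5 (adjusted p = 0.0113). The summed level of all 10 hepatocyte markers, of which 3 passed, ran over 177 to 189, 174 to 200 and 173 to 190 in the same order of groups. For fibroblasts 3 of 8 markers passed, of which ACTA2 was lower (-0.32 and -0.45 log2 in si-BAP1 and si-MBD5, limma adjusted p = 0.00336 and 0.000516) and PDGFRB higher (0.16 and 0.24 log2, limma adjusted p = 0.0407 and 0.00629). For endothelial cells 4 of 6 passed and for immune cells 3 of 7, none of them called by limma. In si-BAP1, 1 immune marker was past an unadjusted p of 0.05, as were 4161 of all 12431 genes. The part of these markers in the results below was not tested.

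Members were often dim. A mean intensity above the 40th percentile of all probe sets, 25.5, was found for 167 of the 287 members (58.2%), against 143 of 188 ZNF genes numbered under 400 (76.1%) and 12431 of all 18132 genes (68.6%). The remaining 120 members were not tested in the fit that follows. By RefSeq 153 members lie on chromosome 19, of which 80 were tested, and 134 lie elsewhere, of which 87 were tested. Among the untested members were ZNF687, ZNF711 and ZNF750.

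Promoters of members were looked up in RefSeq (GRCh38.p14), as windows of 250 bases before to 50 after each annotated start, which covered 242 of the 287 members with 311 windows. Those of 6 members that rose in both knockdowns are shown, to set the neighbours ZNF765 and ZNF761, other chromosome 19 genes and genes elsewhere beside each other. Capitals mark exact matches on either strand to GGGCGG (bound by SP1), CCGGAAG (an ETS motif) and CCAAT (bound by NF-Y). Shorter or variant forms of these motifs were not searched. Every window is printed on the plus strand, along which all 6 genes run. The windows are chr19:57240382-57240681 for ZNF805, chr19:53394899-53395198 for ZNF765, chr19:53431734-53432033 for ZNF761, chr19:52269337-52269636 for ZNF766, chr12:123972965-123973264 for ZNF664 and chr2:184598279-184598578 for ZNF804A.
ZNF805: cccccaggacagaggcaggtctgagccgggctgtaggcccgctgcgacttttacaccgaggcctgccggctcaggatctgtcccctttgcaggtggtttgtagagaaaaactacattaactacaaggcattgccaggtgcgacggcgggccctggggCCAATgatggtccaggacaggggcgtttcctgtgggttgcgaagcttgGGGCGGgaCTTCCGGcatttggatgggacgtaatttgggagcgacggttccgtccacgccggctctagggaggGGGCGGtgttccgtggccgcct
ZNF765: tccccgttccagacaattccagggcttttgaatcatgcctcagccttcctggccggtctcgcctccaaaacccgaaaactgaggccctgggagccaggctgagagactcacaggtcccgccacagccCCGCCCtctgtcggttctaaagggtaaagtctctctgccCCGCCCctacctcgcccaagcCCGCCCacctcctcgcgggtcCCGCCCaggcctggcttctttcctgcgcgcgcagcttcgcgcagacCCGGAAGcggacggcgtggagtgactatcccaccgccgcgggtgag
ZNF761: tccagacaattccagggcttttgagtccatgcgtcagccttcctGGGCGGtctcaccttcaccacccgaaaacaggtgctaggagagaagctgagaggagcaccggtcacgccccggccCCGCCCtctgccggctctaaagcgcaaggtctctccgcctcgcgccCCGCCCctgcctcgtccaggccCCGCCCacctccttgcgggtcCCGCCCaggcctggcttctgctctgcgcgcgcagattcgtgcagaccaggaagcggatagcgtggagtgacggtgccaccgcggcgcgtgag
ZNF766: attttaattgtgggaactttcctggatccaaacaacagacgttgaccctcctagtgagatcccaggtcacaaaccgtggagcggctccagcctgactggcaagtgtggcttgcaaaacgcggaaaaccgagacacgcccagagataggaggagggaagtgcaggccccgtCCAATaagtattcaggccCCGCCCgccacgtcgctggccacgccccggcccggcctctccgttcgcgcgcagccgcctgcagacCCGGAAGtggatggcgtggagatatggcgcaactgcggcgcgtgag
ZNF664: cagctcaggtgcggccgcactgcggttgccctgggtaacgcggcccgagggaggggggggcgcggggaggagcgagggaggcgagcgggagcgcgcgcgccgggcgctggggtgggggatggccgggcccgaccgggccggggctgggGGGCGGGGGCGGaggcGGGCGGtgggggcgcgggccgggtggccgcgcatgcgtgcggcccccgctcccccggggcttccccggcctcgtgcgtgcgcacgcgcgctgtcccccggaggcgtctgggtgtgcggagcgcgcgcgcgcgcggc
ZNF804A: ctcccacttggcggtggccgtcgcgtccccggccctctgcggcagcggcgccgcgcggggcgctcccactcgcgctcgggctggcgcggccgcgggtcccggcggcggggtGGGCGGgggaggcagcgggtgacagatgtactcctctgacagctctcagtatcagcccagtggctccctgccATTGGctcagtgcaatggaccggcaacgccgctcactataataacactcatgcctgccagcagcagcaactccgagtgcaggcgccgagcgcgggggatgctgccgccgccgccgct
In these windows CCGGAAG occurred once in each of ZNF805, ZNF765 and ZNF766, and had no exact match in ZNF761, ZNF664 and ZNF804A. In both ZNF765 and ZNF766 it began 4 bases after the annotated start, and in ZNF805 it began 37 bases before. The GGGCGG motif occurred 4 times in ZNF765, 5 times in ZNF761 and 3 times in ZNF664. The ZNF765 and ZNF761 windows were identical at 248 of 309 aligned columns (80.3%), while the other pairs of these 6 ran over 43.8% to 54.9%.

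Over all 311 windows of members, CCGGAAG was present in 106 (34.1%), against 10.3% of all 35116 promoter windows. These windows cover 27305 genes and were not limited to protein-coding genes, as the members were. The shares of all windows here therefore compare unlike sets. Among members, CCGGAAG was present in 69 of 172 windows on chromosome 19 (40.1%) and 37 of 139 of the others (26.6%). GGGCGG was found in 62.7% of members' windows and 45.0% of all windows, and CCAAT in 42.4% and 34.6%. Members called higher in at least 1 knockdown against si-Control had CCGGAAG in 15 of 39 windows (38.5%), against 38 of 134 (28.4%) for tested members called in neither. The matching counts for CCAAT were 21 of 39 (53.8%) and 46 of 134 (34.3%), and for GGGCGG they ran the other way, at 23 of 39 (59.0%) and 96 of 134 (71.6%). Members called lower had CCGGAAG in 1 of 8 windows. Another 5 motifs were searched on both strands. TGACGT (CRE) was in 12.5% of members' windows and 7.98% of all, and AAGATGGC (YY1) in 3.86% and 2.89%. CACGTG (E-box) was in 4.50% and 7.26%, TTTCCCGC (E2F) in 1.93% and 1.63%, and GTAAACA (FOX) in 1.93% and 3.42%. Where matches to different motifs overlapped, each was counted, and a match is a run of letters, not evidence of binding. Members' windows were richer in G and C, with a median of 61.3% against 58.7% in all windows, and held a median of 22 CG dinucleotides against 14.

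The first comparison asked how the members differed in cells with BAP1 siRNA. In si-BAP1 cells 31 of the 167 tested members rose and 6 fell against si-Control. The largest rises called were of ZNF805, ZNF765, ZNF721, ZNF860 and ZNF804A. The largest falls called were of ZNF425, which was tested only through its si-Control mean, ZNF697 and ZNF706. The calls made up 22.2% of members, close to the 23.5% of all tested genes called in this comparison. The share called higher was 18.6%, against 12.4% of all genes, and the share called lower was 3.59%, against 11.1% of all genes. The median log2 difference was 0.03 over members and 0.00 over all genes, and 130 members were not called. Arrays of the 2 groups did not overlap, with si-BAP1 higher, for 52 members (31.1%; 20.1% of all genes), and with si-BAP1 lower for 18 (10.8%; 17.4% of all genes). Over both directions 37.5% of all genes did not overlap. ZNF genes numbered under 400 gave 28 higher and 7 lower of 143 tested (19.6% and 4.90%).

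**Figure D1:**
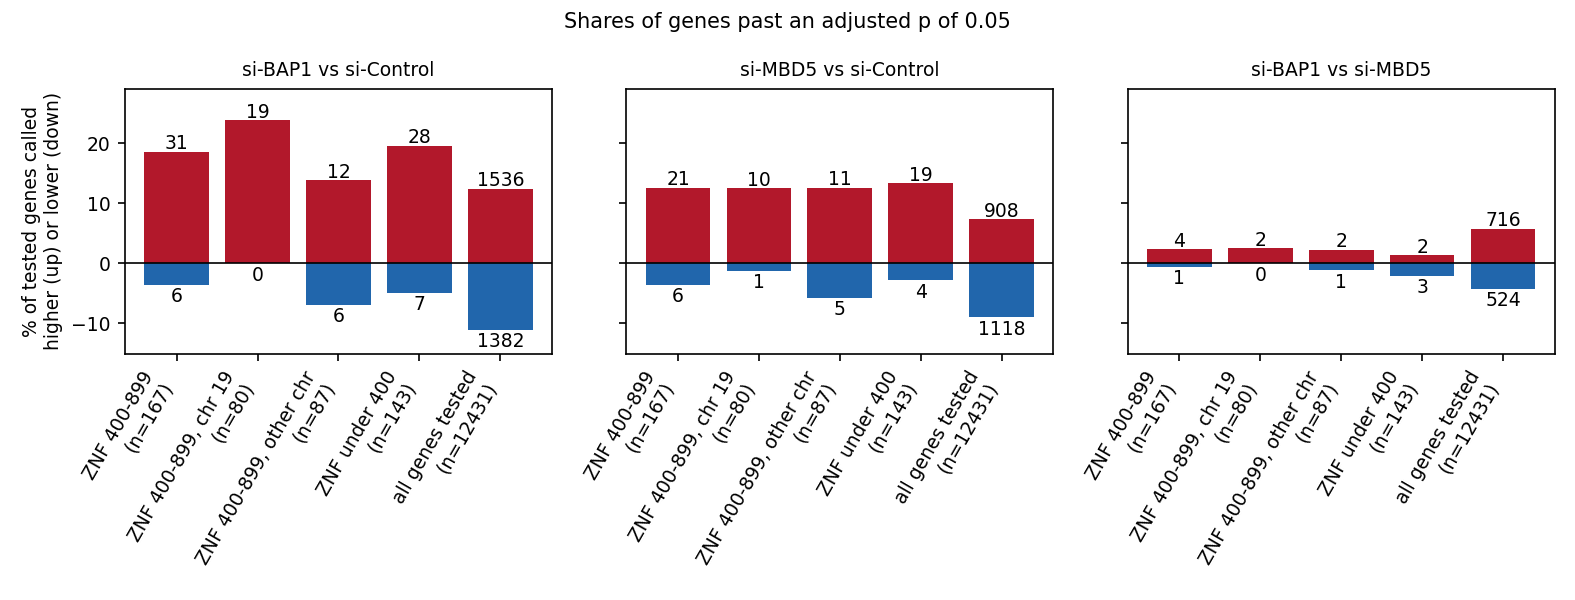
Percent of tested genes called higher (red, above 0) and lower (blue, below 0) in each comparison, with the number of genes at each bar, for the 167 members, their chromosome 19 and other subsets, ZNF genes numbered under 400 and all 12431 genes. In si-BAP1 against si-Control 18.6% of members were higher and 3.59% lower, against 12.4% and 11.1% of all genes.

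Of the 10 largest rises, 5 were of KRAB zinc finger genes on chromosome 19. ZNF805, one such KRAB gene, read 137, 143 and 144 in si-BAP1 arrays, 108, 126 and 105 in si-MBD5 arrays and 86.6, 91.9 and 89.9 in si-Control arrays. Every si-BAP1 array lay above every si-MBD5 array, and these in turn above every si-Control array. Its mean was 142 ± 3.71 in si-BAP1 and 89.5 ± 2.65 in si-Control arrays (SD, n = 3 each), a log2 difference of 0.58 (SE 0.057, limma adjusted p = 8.6e-06), 1.49-fold. Its 3 other probe sets above the filter also passed, at log2 0.20 to 0.39. ZNF765, a KRAB gene read here from a probe set whose name marks possible cross-hybridisation, gave 160.01, 183 and 178 in si-BAP1, 155, 165 and 154 in si-MBD5 and 109, 126 and 119 in si-Control arrays. Both knockdowns lay wholly above the controls and overlapped each other. The si-BAP1 difference was 0.50 log2 (SE 0.059, limma adjusted p = 3.72e-05), and a second ZNF765 probe set gave 0.34 and was called too.

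ZNF766, a KRAB gene on chromosome 19, gave 164, 175 and 177 in si-BAP1, 165, 174 and 154 in si-MBD5 and 125, 125 and 135 in si-Control arrays. Again all 6 knockdown arrays were above the 3 controls, and the si-BAP1 difference was 0.38 log2 (SE 0.052, limma adjusted p = 0.000117), with 2 further probe sets at 0.28 and 0.32, both called. ZNF559, another KRAB gene of chromosome 19, had 60.6, 61.5 and 59.8 in si-BAP1, 52.1, 54.95 and 49.1 in si-MBD5 and 42.99, 45.8 and 46.5 in si-Control arrays. The 3 groups did not overlap, and si-BAP1 was 0.33 log2 above si-Control (limma adjusted p = 0.000236). Its 2 other probe sets were not called, at 0.13 and 0.19. ZNF544, a KRAB gene, read 171, 176 and 178 in si-BAP1, 152, 172 and 158 in si-MBD5 and 139, 138 and 139.6 in si-Control arrays, 0.31 log2 above the controls with si-BAP1 (limma adjusted p = 0.000321).

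ZNF776, a KRAB gene of the chromosome 19 end cluster, read 254, 291 and 280.1 in si-BAP1, 254, 263 and 251 in si-MBD5 and 226, 222 and 231 in si-Control arrays, a si-BAP1 difference of 0.26 log2 (limma adjusted p = 0.00131). ZNF845 and ZNF761, close relatives of ZNF765 and both read from probe sets marked for possible cross-hybridisation, were higher by 0.26 log2 (limma adjusted p = 0.00169) and 0.27 log2 (limma adjusted p = 0.0184). Signal of ZNF765, ZNF761 and ZNF845 may be shared between these near copies, so their values are uncertain as single genes. For ZNF761 the limma adjusted p was 0.0686 without si-BAP1 replicate 2, 0.0569 without si-BAP1 replicate 3, 0.0622 without si-Control replicate 2 and 0.063 without si-Control replicate 3.

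Rises were also found away from chromosome 19. ZNF721, on chromosome 4, read 88.04, 106 and 98.9 in si-BAP1, 94.5, 106 and 83.4 in si-MBD5 and 56.7, 67.8 and 69.4 in si-Control arrays. The knockdown arrays were all above the controls, and si-BAP1 differed by 0.50 log2 (SE 0.082, limma adjusted p = 0.000579), 1.41-fold. ZNF860, a KRAB gene on chromosome 3, was read from a probe set marked for possible cross-hybridisation. It gave 76.5, 96.1 and 81.00 in si-BAP1, 69.02, 70.02 and 55.7 in si-MBD5 and 52.02, 51.4 and 66.95 in si-Control arrays. Its si-BAP1 arrays were above all 6 others, by 0.47 log2 against si-Control (SE 0.094, limma adjusted p = 0.00251), while the si-MBD5 arrays overlapped the controls. ZNF804A, on chromosome 2, lies at a schizophrenia risk locus and its protein carries a single zinc finger. It read 107, 112 and 112 in si-BAP1, 95.6, 100.01 and 90.8 in si-MBD5 and 73.3, 77.00 and 81.7 in si-Control arrays. The 3 groups were fully separated, and si-BAP1 stood 0.44 log2 above si-Control (SE 0.05, limma adjusted p = 2.76e-05).

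ZNF664, on chromosome 12, read 775, 845 and 774 in si-BAP1, 868, 862 and 855 in si-MBD5 and 610.2, 640.2 and 659.9 in si-Control arrays. Every si-MBD5 array was above every si-BAP1 array, and every si-BAP1 array above the controls. The si-BAP1 difference was 0.32 log2 (SE 0.042, limma adjusted p = 9.21e-05), with a second probe set at 0.35. ZNF618, a partner of the methylated-DNA reader UHRF2, gave 66.5, 60.9 and 56.02 in si-BAP1, 57.9, 59.4 and 59.6 in si-MBD5 and 43.4, 45.04 and 44.5 in si-Control arrays. It was 0.35 log2 above si-Control with si-BAP1 (limma adjusted p = 0.000247), and 1 of its 2 other probe sets was called as well. ZNF629, on chromosome 16, gave 141, 148 and 157 in si-BAP1, 139.7, 137 and 142 in si-MBD5 and 119, 121 and 113 in si-Control arrays, 0.30 log2 above si-Control with si-BAP1 (limma adjusted p = 0.000387).

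Among members with known roles outside KRAB repression, 5 more were called higher in si-BAP1 cells. ZNF473, a component of the U7 snRNP that trims histone messenger RNA, read 204, 208 and 214 in si-BAP1 and 180.2, 173 and 174 in si-Control arrays. These did not overlap, and the log2 difference was 0.23 (limma adjusted p = 0.000881). ZNF451, a SUMO ligase, read 241, 247 and 241 in si-BAP1 and 209, 208 and 207 in si-Control arrays, 0.21 log2 higher (limma adjusted p = 0.00429). This call rested on 1 probe set: none of 4 others was called, and the adjusted p was 0.231 with the mean of the gene's probe sets and 0.923 with probe sets marked for cross-hybridisation or shared transcripts left out. ZNF592, a partner of ZMYND8 and ZNF687, read 211, 224 and 226 in si-BAP1 and 193, 189.7 and 187 in si-Control arrays, 0.20 log2 higher (limma adjusted p = 0.00574). Its 4 other probe sets were not called, and the adjusted p was 0.0614 with their mean and 0.163 without the marked probe sets.

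ZNF407, altered in an inherited developmental disorder, read 206, 204 and 189 in si-BAP1 and 178, 178 and 163 in si-Control arrays, 0.19 log2 higher (limma adjusted p = 0.00972). ZNF469, altered in brittle cornea syndrome, read 139.8, 139 and 146 in si-BAP1, 121, 120.5 and 118 in si-MBD5 and 126, 128 and 119.97 in si-Control arrays. Its si-BAP1 arrays were above all others, by 0.17 log2 against si-Control (limma adjusted p = 0.0114, and 0.0576 without si-BAP1 replicate 3). The other 12 members called higher, with log2 differences of 0.14 to 0.29, were ZNF431, ZNF543, ZNF490, ZNF518A, ZNF791, ZNF428, ZNF586, ZNF552, ZNF777, ZNF784, ZNF875 and ZNF841. Of these, ZNF586 kept the call in every alternative setting and with each array left out, ZNF431 kept it in those that could test it, and the others lost it in at least 1.

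The 6 members that fell were ZNF425, ZNF697, ZNF706, ZNF449, ZNF503 and ZNF778. ZNF425, a KRAB gene on chromosome 7, read 22.7, 26.2 and 24.7 in si-BAP1, 21.8, 26.2 and 24.8 in si-MBD5 and 37.2, 30.1 and 37.1 in si-Control arrays. Its means of 24.5 in si-BAP1 and 24.3 in si-MBD5 were below the filter of 25.5, and it was tested only through its mean of 34.8 in si-Control, so a member dim in both knockdowns had to differ to be tested. The si-BAP1 difference was -0.33 log2 (SE 0.067, limma adjusted p = 0.00293, and 0.00365 in the fit without the filter). ZNF706 encodes a small protein with a single finger that represses Klf4 in mouse embryonic stem cells. It read 948, 984 and 837 in si-BAP1, 912, 926 and 981 in si-MBD5 and 1171, 1080.1 and 1110.4 in si-Control arrays, a si-BAP1 difference of -0.28 log2 (limma adjusted p = 0.00198), and its second probe set fell too, at -0.26.

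ZNF503, a repressor of the NET family, read 805, 821 and 844 in si-BAP1, 747, 791 and 692 in si-MBD5 and 949.7, 942 and 941 in si-Control arrays. The groups did not overlap, with si-MBD5 lowest, and si-BAP1 differed by -0.20 log2 (limma adjusted p = 0.00517). Its 3 other probe sets gave -0.08 to 0.04 and none was called, and the mean of its probe sets had an adjusted p of 0.187. ZNF697, a zinc finger gene of chromosome 1, read 86.1, 95.4 and 87.3 in si-BAP1, 99.9, 100.1 and 103 in si-MBD5 and 117, 107 and 113 in si-Control arrays, a si-BAP1 difference of -0.28 log2 (limma adjusted p = 0.000769), while a second probe set gave -0.02. ZNF449, a SCAN-domain gene on chromosome X, differed by -0.22 log2 (limma adjusted p = 0.0307). That value was 0.0829 without si-BAP1 replicate 1, 0.12 without si-BAP1 replicate 3, 0.144 without si-Control replicate 2 and 0.0687 without si-Control replicate 3. ZNF778, a KRAB gene, differed by -0.18 log2 (limma adjusted p = 0.0324, and 0.136 without si-BAP1 replicate 2, 0.126 without si-Control replicate 1 and 0.068 without si-Control replicate 3).

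**Figure D2:**
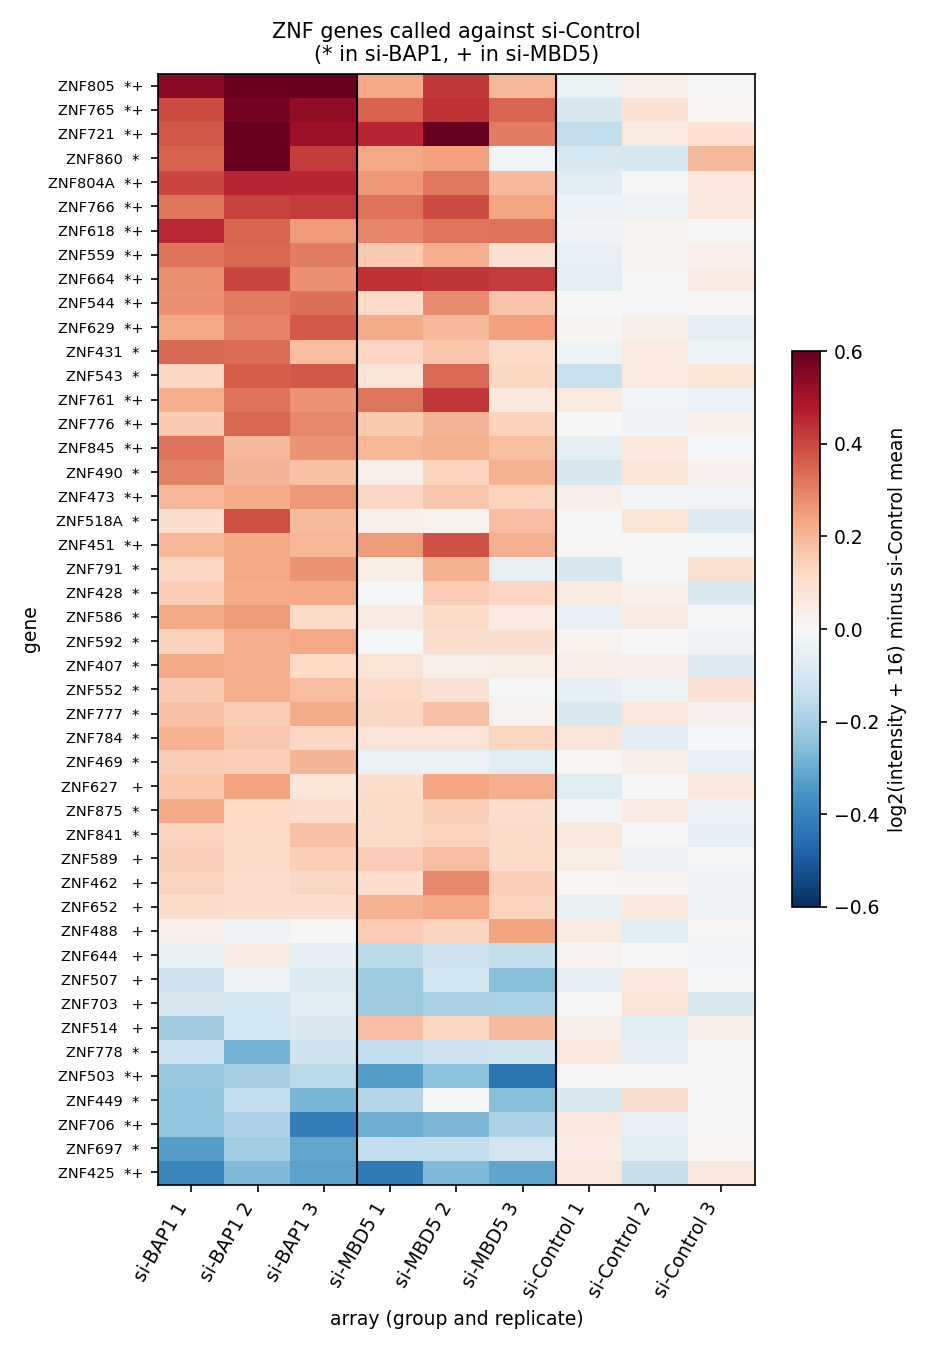
Log2 difference from the si-Control mean, by array, for the 46 members called against si-Control in at least 1 knockdown; rows are genes, columns are the 3 si-BAP1, 3 si-MBD5 and 3 si-Control arrays. Stars mark members called in si-BAP1 and plus signs those called in si-MBD5 against si-Control; ZNF805, ZNF765 and ZNF721 are the strongest rows in the si-BAP1 arrays.

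Of the 130 members not called, ZNF440, a KRAB gene, had the largest negative difference, -0.40 log2 (limma adjusted p = 0.134). It read 146, 108 and 150.1 in si-BAP1, 244, 122 and 152 in si-MBD5 and 192, 161 and 190.5 in si-Control arrays. Its si-BAP1 arrays lay below the controls, but the si-MBD5 arrays were far apart. ZNF598, a ubiquitin ligase that senses collided ribosomes, read 277, 275 and 294 in si-BAP1 and 285, 271 and 263 in si-Control arrays (0.04 log2, limma adjusted p = 0.556). ZNF410, which activates CHD4 transcription, read 644, 628 and 651 in si-BAP1 and 622, 644 and 597 in si-Control arrays (0.05 log2, limma adjusted p = 0.45). Both overlapped the controls. Just outside the threshold were ZNF589 (0.13 log2, limma adjusted p = 0.0572), ZNF512B (0.14 log2, limma adjusted p = 0.0577), ZNF516 (-0.16 log2, limma adjusted p = 0.0585) and ZNF627 (0.16 log2, limma adjusted p = 0.0592).

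The second comparison set si-MBD5 cells against the same 3 si-Control arrays, so its values share those controls with the first. In si-MBD5 cells 21 of the 167 members rose and 6 fell. The largest rises called were of ZNF721, ZNF664, ZNF765 and ZNF766. The largest falls called were of ZNF503, ZNF425, which was tested only through its si-Control mean, and ZNF706. The calls made up 16.2% of members, against 16.3% of all genes. The share called higher was 12.6%, against 7.30% of all genes, and the share called lower was 3.59%, against 8.99% of all genes. The median log2 difference was 0.02 over members and 0.00 over all genes, and 140 members were not called. Arrays did not overlap, with si-MBD5 higher, for 36 members (21.6%; 14.0% of all genes), and with si-MBD5 lower for 13 (7.78%; 16.4% of all genes). Over both directions that was so for 30.4% of all genes. ZNF genes numbered under 400 gave 19 higher and 4 lower of 143. The count of members called higher was 11 without si-Control replicate 2 and 12 without si-Control replicate 3, and the count called lower was 3 without si-Control replicate 2.

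**Figure D3:**
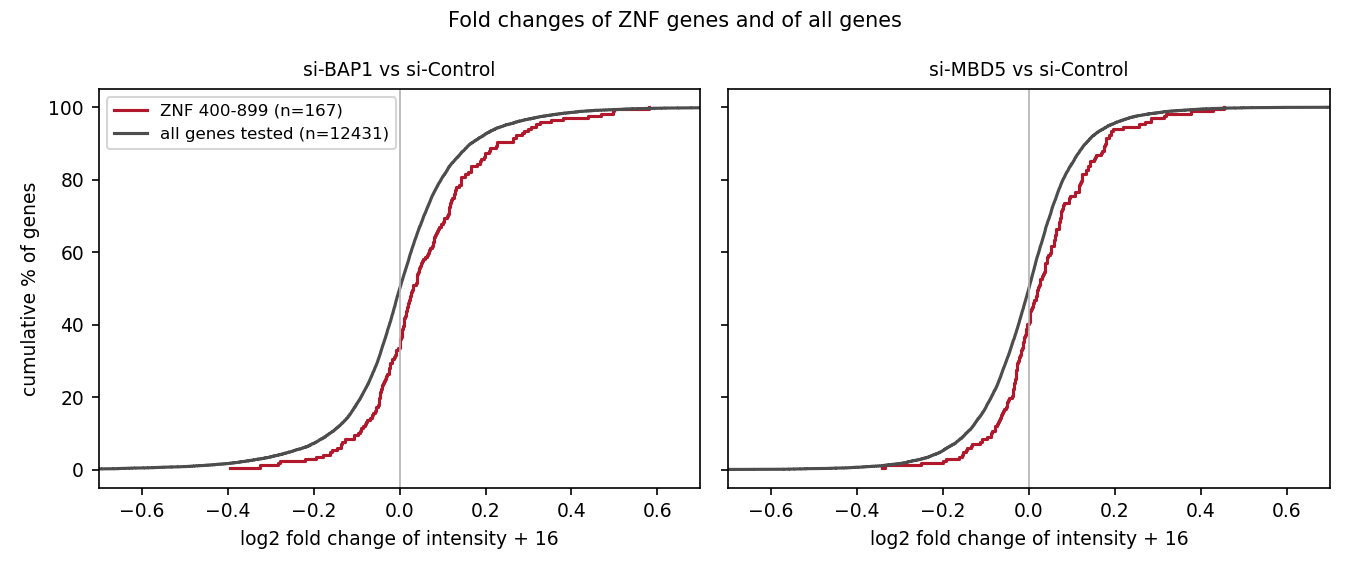
Cumulative share of genes by log2 difference for the 167 tested members (red) and all 12431 tested genes (grey), in both comparisons with si-Control. The members' curves lie right of those of all genes through most of their range, with medians of 0.03 for si-BAP1 and 0.02 for si-MBD5, beside 0.00 for all genes.

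The array values of members named above are those already given, and the si-MBD5 differences were as follows. ZNF721 was 0.46 log2 above si-Control (SE 0.082, limma adjusted p = 0.0021) and ZNF664 was 0.43 log2 above (SE 0.042, limma adjusted p = 2.35e-05), the second ZNF664 probe set giving 0.46. ZNF765 was higher by 0.38 log2 (limma adjusted p = 0.000743) and ZNF766 by 0.32 log2 (limma adjusted p = 0.000997). ZNF618 was higher by 0.31 log2 (limma adjusted p = 0.00125) and ZNF805 by 0.29 log2 (limma adjusted p = 0.00403), but none of ZNF805's 3 other probe sets, at 0.04 to 0.18, was called. ZNF804A was higher by 0.26 log2 (limma adjusted p = 0.00319) and ZNF629 by 0.22 log2 (limma adjusted p = 0.00605). All 3 si-MBD5 arrays lay above all 3 si-Control arrays in each of these 8 members. The rule that named them required this, so it adds no support to their calls.

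Further rises in si-MBD5 cells were less secure. ZNF761 read 77.7, 84.6 and 62.4 in si-MBD5 and 61.9, 58.1 and 56.8 in si-Control arrays, 0.27 log2 higher (limma adjusted p = 0.0259, and 0.105 without si-MBD5 replicate 1, 0.0867 without si-MBD5 replicate 2, 0.0864 without si-Control replicate 2 and 0.0836 without si-Control replicate 3). ZNF845 read 61.9, 62.5 and 60.8 in si-MBD5 and 49.3, 54.9 and 51.3 in si-Control arrays, 0.20 log2 higher (limma adjusted p = 0.0167). Its adjusted p was 0.0512 without si-MBD5 replicate 1, 0.066 without si-Control replicate 1 and 0.0512 without si-Control replicate 3. Their arrays did not overlap, but both come from the group of near copies around ZNF765. ZNF544 was higher by 0.19 log2 (limma adjusted p = 0.0138, and 0.0571 without si-Control replicate 2). Read without its marked probe sets it gave 0.12 log2 and lost the call (limma adjusted p = 0.194).

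ZNF776, ZNF559 and ZNF473, whose arrays also did not overlap, were the smallest rises called in both knockdowns. ZNF776 was higher by 0.17 log2 (limma adjusted p = 0.0322). It lost the call without si-MBD5 replicates 1 (0.078) or 2 (0.086) or si-Control replicates 1 (0.0813), 2 (0.122) or 3 (0.0511). ZNF559 was higher by 0.16 log2 (limma adjusted p = 0.0449). It lost the call with adjusted p of 0.103 and 0.122 without si-MBD5 replicates 1 and 2, and 0.144, 0.0949 and 0.0656 without si-Control replicates 1, 2 and 3. Quantile normalization (0.0612), median centring (0.0819) and the mean of its probe sets (0.404) also ended it. ZNF473 read 193, 199 and 195 in si-MBD5 arrays, 0.14 log2 higher (limma adjusted p = 0.0269). Its adjusted p was 0.0691 and 0.0516 without si-MBD5 replicates 2 and 3, and 0.102 and 0.076 without si-Control replicates 2 and 3.

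Members with named roles that were called in si-MBD5 cells included ZNF451, ZNF652, ZNF462 and ZNF488 upward and ZNF703 and ZNF644 downward. ZNF451, the SUMO ligase, read 252, 276 and 244 in si-MBD5 arrays, 0.28 log2 above si-Control (limma adjusted p = 0.000952). Read without its marked probe set it gave -0.08 log2 (adjusted p = 0.474), so neither its call nor its direction held across probe sets. ZNF652, a partner of the corepressor CBFA2T3, read 268, 272 and 254 in si-MBD5 and 222, 241 and 226 in si-Control arrays, which did not overlap, 0.19 log2 higher (limma adjusted p = 0.00823). ZNF462, altered in Weiss-Kruszka syndrome, read 56.8, 66.9 and 58.9 in si-MBD5 and 52.4, 52.7 and 50.5 in si-Control arrays, 0.18 log2 higher (limma adjusted p = 0.0356). Its adjusted p was 0.11 without si-MBD5 replicate 2 and 0.0713, 0.0834 and 0.11 without si-Control replicates 1, 2 and 3. ZNF488, which acts in oligodendrocyte differentiation, read 50.98, 50.02 and 55.2 in si-MBD5 and 46.7, 41.6 and 44.5 in si-Control arrays, 0.18 log2 higher (limma adjusted p = 0.0302). Neither ZNF462 nor ZNF488 had overlapping arrays. The ZNF488 value was 0.0602 and 0.117 without si-MBD5 replicates 1 and 3 and 0.137 and 0.0699 without si-Control replicates 2 and 3.

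ZNF514, ZNF589 and ZNF627, KRAB genes, were called higher in si-MBD5 cells by 0.15 to 0.19 log2, and each lost the call in at least 1 alternative setting or with an array left out. Of the 6 members that fell, ZNF503 differed by -0.34 log2 (SE 0.044, limma adjusted p = 0.000188), although its other 3 probe sets gave -0.13 to 0.03 with no call. ZNF425, again tested only through its si-Control mean, differed by -0.34 log2 (SE 0.067, limma adjusted p = 0.0039, and 0.00489 without the filter). ZNF706 differed by -0.25 log2 (limma adjusted p = 0.00659), its second probe set giving -0.33 and a call. ZNF703, the NET family paralog of ZNF503 that is amplified in luminal breast cancer, read 133, 135 and 136 in si-MBD5 and 158, 167 and 147 in si-Control arrays. These did not overlap, and the difference was -0.20 log2 (limma adjusted p = 0.0107, and 0.065 without si-Control replicate 2), while a second probe set gave 0.07 and the mean of both had an adjusted p of 0.331.

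ZNF644, which brings the histone methyltransferases EHMT1 and EHMT2 together with WIZ, read 355, 365 and 360.2 in si-MBD5 and 405, 399 and 394 in si-Control arrays. The si-MBD5 arrays were all lower, with a difference of -0.14 log2 (limma adjusted p = 0.024). That value was 0.0779 without si-MBD5 replicate 1, 0.0798 without si-Control replicate 1, 0.0805 without si-Control replicate 2 and 0.0614 with the mean of its probe sets. ZNF507 read 308, 331 and 298 in si-MBD5 and 345, 376 and 357 in si-Control arrays, also with no overlap, at -0.19 log2 (limma adjusted p = 0.0149). Its value was 0.0566 without si-MBD5 replicate 1, 0.083 without si-Control replicate 2 and 0.296 without the marked probe sets.

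The third comparison set si-BAP1 directly against si-MBD5, which is the test of a difference between the knockdowns. Few members differed: 4 of 167 were higher in si-BAP1 cells and 1 was lower, 2.99% against 9.98% of all genes. By direction these were 2.40% and 0.599% of members, against 5.76% and 4.22% of all genes. The median was 0.01 log2. Arrays did not overlap, with si-BAP1 higher, for 23 members (13.8%; 14.8% of all genes), and with si-BAP1 lower for 11 (6.59%; 10.2% of all genes). Over both directions the share of all genes was 25.0%. ZNF genes numbered under 400 gave 2 higher and 3 lower. The count called higher was 2 without si-BAP1 replicate 1 or 2 or si-MBD5 replicate 1 or 3, and 9 without si-MBD5 replicate 2. The count called lower was 3 without si-BAP1 replicate 2 or si-MBD5 replicate 2.

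ZNF805 was higher in si-BAP1 than in si-MBD5 cells by 0.29 log2 (SE 0.057, limma adjusted p = 0.00532) and ZNF469 by 0.22 log2 (SE 0.042, limma adjusted p = 0.00556). ZNF514, a KRAB gene, was lower in si-BAP1 cells, with 25.2, 28.4 and 29.03 in si-BAP1, 38.4, 36.3 and 38.5 in si-MBD5 and 32.98, 29.5 and 32.99 in si-Control arrays. The si-BAP1 arrays were below the controls and the si-MBD5 arrays above them, with a difference between the knockdowns of -0.31 log2 (SE 0.054, limma adjusted p = 0.00273). Against si-Control the differences were -0.14 log2 with si-BAP1 (limma adjusted p = 0.0904) and 0.17 log2 with si-MBD5 (limma adjusted p = 0.0476). This probe set is marked for possible cross-hybridisation and reads close to the filter. ZNF804A was higher in si-BAP1 than in si-MBD5 by 0.18 log2 (limma adjusted p = 0.0339). Its call ended without si-BAP1 replicates 1 (0.053), 2 (0.103) or 3 (0.117) or si-MBD5 replicates 1 (0.0938) or 3 (0.114). ZNF559 was higher by 0.17 log2 (limma adjusted p = 0.0394). Its call ended without si-BAP1 replicates 1 (0.0872), 2 (0.112) or 3 (0.0949) or si-MBD5 replicates 1 (0.103) or 3 (0.139). ZNF860 missed the threshold at 0.31 log2 (limma adjusted p = 0.0528), as did ZNF503 at 0.15 log2 (limma adjusted p = 0.0521).

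**Figure D4:**
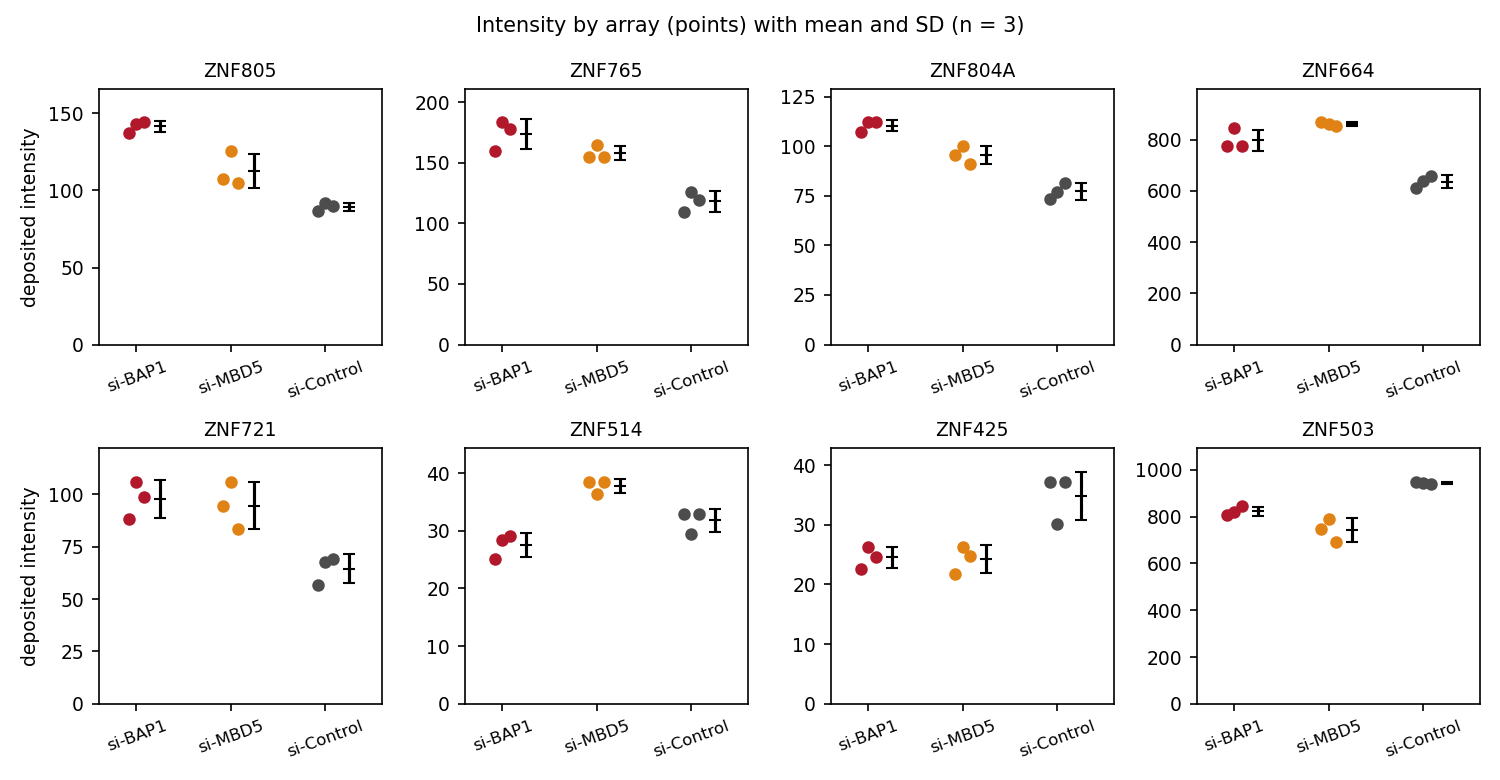
Deposited intensity of ZNF805, ZNF765, ZNF804A, ZNF664, ZNF721, ZNF514, ZNF425 and ZNF503 in every array, with 3 si-BAP1, 3 si-MBD5 and 3 si-Control points per gene and a bar with SD at each group mean. ZNF805 falls into 3 separate levels (means 142, 113 and 89.5), while ZNF721 is alike in both knockdowns (97.7 and 94.6) and lower in si-Control (64.6).

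On chromosome 19, 61 of the 80 members tested were not called in si-BAP1 cells and 69 were not called in si-MBD5 cells. Of the 80, 19 were called higher and 0 lower in si-BAP1 cells by limma. An unadjusted p below 0.05 was found for 33 of the 80, and for 4161 of all 12431 genes. Arrays did not overlap, with si-BAP1 higher, for 30 (37.5%; 20.1% of all genes), and with si-BAP1 lower for 6 (7.50%; 17.4% of all genes). The share called higher was 23.8%, against 12.4% of all genes, and the median log2 difference was 0.07. Members elsewhere gave 12 higher and 6 lower of 87 in si-BAP1 cells (13.8% and 6.90%), with a median of 0.01. In si-MBD5 cells 10 chromosome 19 members were higher and 1 lower (12.5% and 1.25%; median 0.05), with 11 higher and 5 lower elsewhere (12.6% and 5.75%; median 0.00), beside 7.30% and 8.99% of all genes. The difference between chromosome 19 and other members was not tested.

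Neighbouring members were compared in RefSeq order. Of 101 pairs of adjacent members, both genes were tested in 31. In si-BAP1 cells 12 of these pairs held a called member, and in 4 both were called, each time in the same direction: ZNF490 with ZNF791, ZNF765 with ZNF761, ZNF776 with ZNF586, and ZNF586 with ZNF552. In si-MBD5 cells ZNF765 with ZNF761 was the 1 such pair among 5 with a called member. Over all tested members 22.2% were called in si-BAP1 cells, 31 higher and 6 lower. In si-MBD5 cells 16.2% were called, 21 higher and 6 lower. The pair counts were not set against unrelated pairs, so they have no background beside them. Across the 31 pairs the log2 differences of the 2 neighbours correlated at r = 0.40 in si-BAP1 and r = 0.48 in si-MBD5 cells, as a description of pairs that share arrays and, for related genes, probe sequence.

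The counts were also taken by kind of probe set, with no test between kinds. Of 34 tested members read from _x_at probe sets, whose suffix marks possible cross-hybridisation, 12 were called higher in si-BAP1 cells (35.3%; 12.4% of all genes) and 1 lower (2.94%; 11.1% of all genes). Of 21 read from _s_at sets, shared between transcripts, 4 were higher and 2 lower. Of 66 read from _a_at sets 8 were higher (12.1%) and 1 lower, and of 46 read from plain _at sets 7 were higher (15.2%) and 2 lower. In si-MBD5 cells 6 of the _x_at members were called higher (17.6%), 1 of the _s_at (4.76%), 8 of the _a_at (12.1%) and 6 of the plain _at members (13.0%), beside 7.30% of all genes. With _x_at and _s_at sets left out, 136 members could be tested, and 19 were higher and 3 lower in si-BAP1, and 15 higher and 4 lower in si-MBD5 cells. The share of all genes called in that fit is not given here, and the shares of all genes above come from the main fit.

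Where a called member had other probe sets above the filter, these often gave no call. In si-BAP1 cells 19 of the 37 called members had others: all of them carried the call in 7 members, some in 2 and none in 10, and 0 members had an opposite call. In si-MBD5 cells 15 of 27 had others, with 4 all, 1 some and 10 none, and again 0 opposite. Some members that were not called had other probe sets that were. ZNF616 was not called, at 0.17 log2 in si-BAP1 and 0.18 log2 in si-MBD5 cells. Its 2 other probe sets were called higher in both, at 0.37 to 0.39 and 0.30 to 0.33 log2. For si-BAP1, ZNF410, ZNF512, ZNF561 and ZNF564 each had 1 other probe set called higher, and ZNF480 had 1 called lower. By limma 20 of the 37 si-BAP1 calls held in each alternative setting that could test the gene and with each array left out, and 12 of the 27 si-MBD5 calls did. Of these, 11 in si-BAP1 and 8 in si-MBD5 were tested in all settings, while 9 and 4 were left untested by at least 1, the higher filter or the one without marked probe sets. Among the largest rises these included ZNF805, ZNF765, ZNF721, ZNF804A, ZNF766, ZNF618 and ZNF664 in both knockdowns, and among the falls ZNF706 in both. Of these, ZNF765, ZNF618 and ZNF706 were not tested in every setting.

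The machinery through which KRAB zinc fingers act was read from a list of 30 corepressor and heterochromatin genes, all tested. In si-BAP1 cells 5 rose and 0 fell by limma, 16.7% called against 23.5% of all genes, with a median log2 difference of 0.04. An unadjusted p below 0.05 was found for 10 of the 30, and for 4161 of all 12431 genes. Arrays did not overlap for 7 with si-BAP1 higher (23.3%; 20.1% of all genes) and 2 with si-BAP1 lower (6.67%; 17.4%). In si-MBD5 cells 4 rose and 3 fell, 23.3% called against 16.3% of all genes, with a median of 0.02. HDAC1, a histone deacetylase, read 946, 958 and 932 in si-BAP1, 855, 858 and 859 in si-MBD5 and 676, 689 and 701 in si-Control arrays. The 3 groups did not overlap, and the differences from si-Control were 0.45 log2 with si-BAP1 (limma adjusted p = 5.54e-07) and 0.31 log2 with si-MBD5 (limma adjusted p = 2.95e-05, but 0.164 without the marked probe sets). SUV39H2, a histone methyltransferase, was higher by 0.39 log2 in si-BAP1 (limma adjusted p = 0.000164) and 0.40 log2 in si-MBD5 (limma adjusted p = 0.00035). It read 278, 295 and 298 in si-BAP1, 311, 294 and 269 in si-MBD5 and 206, 216 and 230.3 in si-Control arrays.

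TASOR, the scaffold of the HUSH silencing complex, read 551, 557 and 557 in si-BAP1, 658, 622 and 624 in si-MBD5 and 439.6, 469 and 493 in si-Control arrays. It was 0.24 log2 higher with si-BAP1 (limma adjusted p = 0.00103) and 0.43 log2 with si-MBD5 (limma adjusted p = 2.85e-05). With the mean of its probe sets these values were 0.14 (adjusted p = 0.0504) and -0.04 (adjusted p = 0.666), so the result depends on the probe set. TRIM28, the corepressor itself, read 479, 482 and 516 in si-BAP1, 475, 523 and 498 in si-MBD5 and 453, 457 and 416 in si-Control arrays. It was higher by 0.15 log2 with si-BAP1 (limma adjusted p = 0.0383) and 0.17 log2 with si-MBD5 (limma adjusted p = 0.0307). The si-BAP1 call ended whichever of the 6 arrays was left out, with adjusted p from 0.0505 (without si-Control replicate 2) to 0.165 (without si-BAP1 replicate 3), and also with the replicate block (0.0567), with median centring (0.0609) and without the intensity trend (0.0543). The si-MBD5 call ended without si-MBD5 replicates 2 (0.0994) or 3 (0.0544) or si-Control replicates 2 (0.0503) or 3 (0.123), with median centring (0.0608) and with only the compared groups (0.0519). SETDB1 was not called, at 0.00 and -0.10 log2.

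ATRX, a chromatin remodeller, was higher in si-BAP1 cells by 0.21 log2 (limma adjusted p = 0.00304), with 0.12 in si-MBD5 cells (limma adjusted p = 0.0802). The 3 falls in si-MBD5 cells were of CBX5, an HP1 protein (-0.19 log2, limma adjusted p = 0.0137), RCOR1, a CoREST subunit (-0.25 log2, limma adjusted p = 0.00517), and UHRF1, a methylated-DNA reader (-0.18 log2, limma adjusted p = 0.0312). Without si-Control replicate 3 the adjusted p was 0.0528 for CBX5 and 0.126 for UHRF1. For UHRF1 it was 0.122 and 0.0671 without si-MBD5 replicates 1 and 2. With the mean of its probe sets CBX5 gave 0.02 log2 (adjusted p = 0.821). The count of falls was 1 without si-Control replicate 3.

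A second list held 13 genes, partners of ZNF592, ZNF687, ZNF532, ZNF711 or ZNF827, 12 with a probe set and all 12 tested. In si-BAP1 cells 4 rose and 1 fell (41.7%; 23.5% of all genes). In si-MBD5 cells 2 rose and 0 fell by limma, 16.7% against 16.3% of all genes. An unadjusted p below 0.05 was found for 2 of the 12, and for 3535 of all 12431 genes. MTA1, a NuRD subunit, read 161, 174 and 165 in si-BAP1, 144, 156 and 144 in si-MBD5 and 111, 126 and 121 in si-Control arrays, which was higher by 0.43 log2 with si-BAP1 (limma adjusted p = 5.09e-05) and 0.28 log2 with si-MBD5 (limma adjusted p = 0.00299). GATAD2A, also of NuRD, read 670.5, 683 and 694 in si-BAP1, 611, 635 and 605 in si-MBD5 and 531, 529 and 530.4 in si-Control arrays. Its 3 groups did not overlap, and it was higher by 0.36 log2 with si-BAP1 (limma adjusted p = 7.18e-06) and 0.21 log2 with si-MBD5 (limma adjusted p = 0.000984, and 0.0622 without the marked probe sets). RBBP4 (0.24 log2, limma adjusted p = 0.00781) and PHF8 (0.20 log2, limma adjusted p = 0.00944) were also called higher in si-BAP1 cells, although averaging the probe sets of PHF8 gave 0.09 log2 (adjusted p = 0.132). ZMYND11, a reader of methylated histone H3, read 282, 302 and 288 in si-BAP1, 353, 372 and 347 in si-MBD5 and 357, 357 and 357 in si-Control arrays, and differed from si-Control by -0.28 log2 with si-BAP1 (limma adjusted p = 0.000191) and 0.00 log2 with si-MBD5. Set directly against each other, si-BAP1 differed from si-MBD5 by -0.29 log2 (limma adjusted p = 0.000618).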

How the data were processed

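The authors deposited 1 linear intensity for each probe set and array, made with MAS5 (no version given) per the submitters' processing notes. Per the labels, biotin-labelled cRNA was prepared from 6 ug of Trizol-extracted RNA. The arrays had near-equal medians and were not rescaled. Between 25.2% and 28.5% of the values of an array occur more than once within it. Of 49395 probe sets, 102 were controls, 44988 carried 1 gene symbol, 1832 several and 2473 none; 44961 were matched to RefSeq genes (GRCh38.p14) for current symbols.

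Probe sets with 1 symbol and a mean above the 40th percentile were kept, the brightest stood for its gene, and a model with 3 group means on log2(intensity + 16) was fitted to all 9 arrays in limma 3.58.1 (R 4.3.3), with an intensity trend. The procedure was tested on simulated data. Benjamini-Hochberg adjustment ran over all 12431 genes of a comparison. Alternatives were another constant, quantile normalization, median centring, other filters, the mean of probe sets, leaving out _x_at and _s_at sets, the replicate number as a block, no trend, only the 2 groups compared, symbols as annotated and each array left out. Fitting with no added constant was chosen after seeing the data. Within groups the SD of a gene had a median of 0.061 log2, and the number of arrays limits the precision. Plots were made in Python 3.11.15 with matplotlib 3.10.9.

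The members and lists were chosen with earlier results of these data known. Genes were named by a rule: the 10 largest rises and falls in each comparison among members called with non-overlapping arrays, members called in both knockdowns, and called members with a role outside KRAB repression. Members named as not called, as just outside the threshold or only counted, and the genes of both lists, were chosen beyond that rule with their values seen. Promoter windows were aligned pairwise with a match score of 1, a mismatch score of -1, a gap opening score of -3 and a gap extension score of -0.5.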

Additional observations from a re-analysis of the deposited data

How the results depend on the processing

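Of 1001 alternative values for the named members, 913 kept direction and call, 87 lost the call with the same direction (58 of them on leaving out an array) and 1 reversed, ZNF451 in si-MBD5 against si-Control at -0.081 without _x_at and _s_at probe sets. Among the listed genes, with the mean of probe sets, CBX5 (0.021) and TASOR (-0.039) in si-MBD5 against si-Control also reversed. Shares of all genes called in the alternative fits are not given here. In si-BAP1 against si-Control the members called lower were 3 with the filter at the 60th percentile. Without _x_at and _s_at sets 19 were higher and 3 lower, where fewer members were tested. In si-BAP1 against si-MBD5 the 1 member called lower became 2 with a constant of 64, 4 with quantile normalization (beside 5 higher), 0 with the filter at the 60th percentile, 3 with the mean of probe sets, 0 without _x_at and _s_at sets, 2 with the replicate block and 2 without the trend; the cause was not tested. Leaving out each array gave 22 to 26 higher and 4 to 6 lower in si-BAP1, 11 to 17 higher and 3 to 9 lower in si-MBD5, and 2 to 9 higher and 1 to 3 lower between the knockdowns. Whether replicate numbers pair the arrays is not given by the labels. Deviations of same-numbered arrays correlated at -0.402 to 0.434 (9 pairs), 3 of them over 0.1. For different numbers the range was -0.529 to 0.46 (18 pairs). In 7 of 18 choices, each of 1 array and another group, the own number correlated best. So few pairs cannot settle whether the arrays are paired. With the replicate block 32 members were higher and 8 lower in si-BAP1, 23 and 6 in si-MBD5, and 4 and 2 between the knockdowns. Members near the filter, such as ZNF425 and ZNF514, have little signal over background, and the 120 members under it were seen only without the filter.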

Other observations

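Without the filter, 4 of the 120 dim members were called in at least 1 comparison, all at intensities below 25.5. The share of all dim genes called in that fit is not given here, so this count has no background beside it. ZNF551, a KRAB gene, read 23.3, 23.9 and 23.5 in si-BAP1 arrays, against 17.3, 18.9 and 19.1 in si-Control arrays, 0.20 log2 higher (limma adjusted p = 0.00895 in the fit without the filter). ZNF563 read 15.7, 13.6 and 12.1 in si-MBD5 arrays, against 10.6, 9.52 and 10.7 in si-Control arrays, 0.18 log2 higher (limma adjusted p = 0.0196). ZNF599 read 15.0, 17.8 and 16.7 in si-MBD5 arrays, against 22.6, 18.8 and 22.9 in si-Control arrays, -0.20 log2 (limma adjusted p = 0.0287). ZNF493 read 13.0, 13.7 and 14.3 in si-BAP1 arrays, against 11.3, 11.6 and 8.66 in si-MBD5 arrays, 0.16 log2 higher (limma adjusted p = 0.0427). In each case the arrays of the 2 groups did not overlap, and the signal was dim enough for the added constant of 16 to shrink the difference.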
